A study of Mus musculus with 24 samples.

Results

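Of 24 RNA-seq libraries of mouse inguinal white adipose tissue, the fat pad of the groin, 8 came from mice on a high-fat diet, and 4 of these 8 carried lymph node transcripts at a high level. The 4 node-rich libraries were control 1, control 4, FMRKO 1 and FMRKO 4. The 4 node-poor libraries were control 2, control 3, FMRKO 2 and FMRKO 3. They were chosen by their own levels of Cd3e, Ccr7 and Glycam1, so every difference between the classes on the high-fat diet is given as a description, with no test. Both genotypes carried MRflox/flox, floxed alleles of Nr3c2, the mineralocorticoid receptor gene. Control mice had no Cre, and FMRKO mice (AdipoqCre+, MRflox/flox) expressed Cre from the promoter of adiponectin, a gene of mature adipocytes, so Nr3c2 in other cells of the pad was not the target. The other 16 libraries, from control and FMRKO mice on Chow or on Corticosterone with 4 libraries per group, were not used in the choice. The age of the mice is not stated. Whether each library is 1 animal is not stated either, so the p-values rest on the spread between libraries, which may be technical.

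The inguinal pad of the mouse encloses a lymph node, and a dissected pad can include more or less of it. A node holds T cells in its paracortex and B cells in follicles, both carried on a scaffold of reticular stromal cells. Lymphocytes enter from the blood through high endothelial venules, whose cells display sulfated sugars on mucins such as Glycam1. They are guided inward by chemokines read by Ccr7 on T cells and Cxcr5 on B cells, and lymph arrives through sinuses lined by lymphatic endothelium and macrophages.

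The sequence just before the start site is shown for 1 gene of each of the 3 node compartments that the results turn on, the T cell gene Cd3e, the B cell gene Cd79a and the venule gene Glycam1. Each run is the 250 bases before the RefSeq start, from 5′ to 3′ on the gene's strand in GRCm38.p6. Cd3e is at chr9:45009612-45009861 on the minus strand, Cd79a at chr7:24897247-24897496 on the plus strand, and Glycam1 at chr15:103565082-103565331 on the minus strand. Capitals mark a match to the ETS family motif ACAGGAAGT on either strand.
Cd3e: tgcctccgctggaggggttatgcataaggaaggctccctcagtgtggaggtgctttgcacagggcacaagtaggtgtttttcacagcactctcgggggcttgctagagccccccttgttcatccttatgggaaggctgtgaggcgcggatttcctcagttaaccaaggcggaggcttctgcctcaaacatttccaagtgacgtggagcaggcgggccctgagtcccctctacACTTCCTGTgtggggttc
Cd79a: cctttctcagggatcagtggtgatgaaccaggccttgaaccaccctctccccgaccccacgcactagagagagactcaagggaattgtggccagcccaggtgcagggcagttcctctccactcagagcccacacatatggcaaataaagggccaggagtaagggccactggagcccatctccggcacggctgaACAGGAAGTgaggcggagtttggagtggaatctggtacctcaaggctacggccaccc
Glycam1: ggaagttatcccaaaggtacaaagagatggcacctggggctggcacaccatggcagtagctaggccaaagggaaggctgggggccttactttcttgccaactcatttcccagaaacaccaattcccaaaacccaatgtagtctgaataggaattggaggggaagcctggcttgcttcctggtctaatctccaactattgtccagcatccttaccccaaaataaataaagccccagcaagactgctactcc
Glycam1 held no match to this motif in the window. Of 17484 genes tested, 921 (5.27%) were at least 2-fold higher in the node-rich libraries with no overlap between the classes. Of these 921, 591 had a promoter in the table, and 24 of the 591 (4.06%) held ACAGGAAGT, against 134 of 11974 genes tested (1.12%) and 255 of all 27025 genes listed (0.944%). Lck and Lef1 were the other T or B cell list genes with a match. Each of the other 3 motifs searched on both strands was counted the same way. The octamer ATTTGCAT was in 25 of the 591 (4.23%) against 1.51% of genes tested and 1.81% of all listed. TGTGGTTT, a RUNX motif, was in 18 (3.05%) against 1.31% and 1.78%. The kappaB motif was in 6 (1.02%) against 0.409% and 0.414%. These are counts of letters in a window, not of sites that a factor uses.

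The genes behind the choice showed how far the classes stood from each other. Levels are counts scaled to library size as CPM, with TMM factors computed over the 8 high-fat libraries. Cd3e (chr9:44998743-45009590), a subunit of the T cell receptor complex, was at 21.15, 3.85, 3.54 and 47.03 CPM in control libraries 1 to 4 and at 12.98, 2.22, 2.27 and 48.81 CPM in FMRKO libraries 1 to 4. Libraries 1 and 4 were high in both genotypes and 2 and 3 low, with 12.98 CPM the lowest node-rich value and 3.85 the highest node-poor one. Ccr7 (chr11:99144196-99155077), the chemokine receptor that guides lymphocytes into the node, was at 19.00, 1.28, 1.69 and 51.95 CPM in the controls and at 12.88, 0.634, 1.11 and 47.34 CPM in FMRKO. Glycam1 (chr15:103562762-103565078) was at 5.03, 0.0828, 0.195 and 26.75 CPM in the controls and at 5.4, 0.159, 0.199 and 16.98 CPM in FMRKO. For both genes the order was the same, with libraries numbered 4 above those numbered 1, and both far above the rest. Over the 8 libraries the node score, the mean log2 CPM of these 3 genes, was 3.67, -0.09, 0.25 and 5.34 in the controls and 3.29, -0.47, -0.14 and 5.09 in FMRKO.

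**Figure D1:**
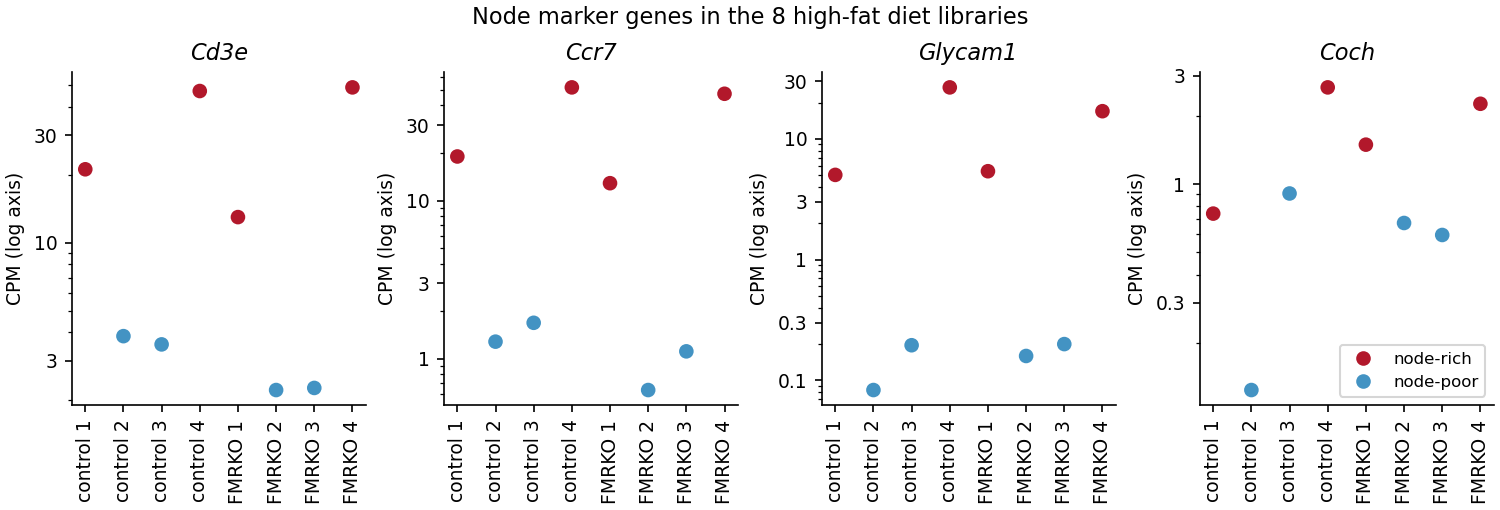
CPM on a log axis (vertical) of Cd3e, Ccr7, Glycam1 and Coch in each of the 8 high-fat libraries (horizontal), 1 point per library, coloured by node class. Cd3e, Ccr7 and Glycam1 chose the classes and do not overlap between them, while Coch does, with 0.741 CPM in control 1 and 0.909 CPM in control 3.

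Coch and Ccl19, the other genes named as markers of node tissue, marked the classes less well. Coch, a secreted matrix protein of follicular stromal cells, was at 0.741, 0.124, 0.909 and 2.66 CPM in the controls and at 1.49, 0.674, 0.597 and 2.25 CPM in FMRKO, so node-rich control 1 lay below node-poor control 3. Ccl19, a chemokine of reticular cells, had 4, 0, 0 and 5 counts in the controls and 2, 0, 1 and 25 in FMRKO. Each node-rich library was above each node-poor one, but 3 of the 4 had 5 counts or fewer, and the gene was under the count minimum.

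A difference was called apart where all 4 node-rich libraries lay on 1 side of all 4 node-poor ones and the fitted change, with genotype in the model, was at least 2-fold. The 921 genes named above (5.27%) were apart and higher in the node-rich libraries, and 15 (0.0858%) were apart and lower. Without the fold limit, 2130 genes (12.2%) did not overlap and were higher, and 1242 (7.1%) did not overlap and were lower. Genes higher in the node-rich class thus reached 2-fold far more often than genes lower in it. In sign alone, 8044 of all genes tested had a log2 fold change above 0 and 9440 below 0. These shares of all genes are the base for the counts of each list below. The 921 genes took 0.930% and 2.85% of all counts in control 1 and 4, and 0.906% and 2.06% in FMRKO 1 and 4, against 0.364% to 0.445% in the node-poor libraries. Because libraries numbered 1 and 4 were rich in both genotypes, node class cannot be told apart from whatever else those numbers share. By library, 1480 genes were apart and higher in the controls alone and 181 lower, and 1329 and 144 in FMRKO alone. Without the libraries numbered 1 the counts were 2115 and 186, and without those numbered 4 they were 698 and 121. Leaving out any 1 library gave 26 to 46 genes apart and lower in place of 15, each time with fewer libraries to keep from overlapping.

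B cell genes stood furthest from the node-poor level. All 18 of the B cell list were apart and higher, with a median log2 fold change of 4.86, while the median over all genes tested was -0.04. Cd79a, a signalling subunit of the B cell receptor, was at 35.85, 3.15, 3.70 and 159.7 CPM in the controls and at 43.32, 1.47, 1.51 and 72.29 CPM in FMRKO, a log2 fold change of 5.03 ± 0.49 (SE). Control 4 was highest, and FMRKO 1 was above control 1. Fcmr, the Fc receptor for IgM, was at 20.21, 0.869, 1.82 and 98.80 CPM in the controls and at 23.48, 0.0793, 0.318 and 42.11 CPM in FMRKO, and its log2 fold change of 6.04 ± 0.68 was the highest of the list. The smallest was that of Cd37, a tetraspanin also found on other leukocytes, at 2.17 ± 0.38. Cr2, a complement receptor of mature B cells and follicular dendritic cells, had 3.48 ± 0.47.

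Immunoglobulin genes were uneven between the libraries of 1 class. Igkc, the kappa light chain constant region, was at 71.71, 30.79, 18.05 and 503.0 CPM in the controls and at 163.3, 12.53, 8.40 and 467.9 CPM in FMRKO (log2 fold change 4.22 ± 0.69). Ighm, the mu heavy chain, was at 249.4, 275.8, 362.1 and 711.6 CPM in the controls and at 438.1, 167.1, 218.0 and 524.6 CPM in FMRKO, so that node-rich control 1 lay below both node-poor controls. Its ratio to Cd79a was 4.46 to 10.1 in the node-rich libraries and 87.7 to 144 in the node-poor ones. Of the 8 constant regions tested, 4 were apart and higher (Igkc, Ighg2c, Iglc2 and Ighg1). Ighg2b overlapped, with 3.36 CPM in node-rich control 1 and 7.53 in node-poor control 2. Summed over the 50 immunoglobulin variable segments tested, the level was 45.84, 19.08, 11.75 and 233.4 CPM in the controls and 85.78, 9.56, 3.86 and 236.7 CPM in FMRKO, and 35 of the 50 were apart and higher. Such segments share near-identical sequence, so reads can be split between them and single segments are uncertain. A segment near 0 in the node-poor libraries met the count minimum only through the node-rich ones, which in part fixes the 35 of 50. Of 7 plasma cell genes, Jchain and Mzb1, which serve antibody assembly, were apart and higher (log2 fold change 3.31 ± 0.54 and 4.83 ± 0.79), while Sdc1, the syndecan that marks plasma cells and is also made elsewhere, overlapped at -0.15 ± 0.13. None of the 3 germinal centre genes tested was apart, with a median of 0.24.

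T cell genes were higher throughout, with 21 of 22 apart and a median log2 fold change of 3.89. Without Cd3e, whose level chose the classes, 20 of 21 were apart with a median of 3.95. Tcf7, a transcription factor of naive and memory T cells, was at 45.88, 4.68, 5.36 and 122.1 CPM in the controls and at 23.98, 2.58, 2.87 and 124.0 CPM in FMRKO. Here the libraries numbered 4 were level, and FMRKO 1 was the lowest of the rich class. Lef1, its relative, had the highest log2 fold change of the list at 5.48 ± 0.65. Cd4, the helper co-receptor, was at 22.47, 3.02, 2.53 and 58.21 CPM in the controls and at 19.47, 1.55, 2.15 and 56.87 CPM in FMRKO. Cd8a, the cytotoxic co-receptor, was at 13.97, 1.95, 1.75 and 35.70 CPM in the controls and at 8.98, 0.555, 0.756 and 36.25 CPM in FMRKO. The Cd8a to Cd4 ratio overlapped between the classes, from 0.461 to 0.637 in the rich and from 0.352 to 0.692 in the poor libraries. The 1 member that was not apart was Trac, the alpha chain constant region, with 11.36 CPM in node-rich FMRKO 1 and 13.66 CPM in node-poor control 2. Foxp3, the regulator of regulatory T cells, was at 5.19, 1.57, 1.33 and 11 CPM in the controls and at 5.20, 1.86, 1.75 and 12.89 CPM in FMRKO (log2 fold change 2.40 ± 0.34), and 5 of the 7 genes of regulatory and activated T cells tested were apart and higher.

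The balance of B and T cell genes differed among the node-rich libraries. Cd79a stood to Cd3e as 1.70 in control 1, 3.4 in control 4, 3.34 in FMRKO 1 and 1.48 in FMRKO 4. Control 4 and FMRKO 1 thus had close ratios at node scores of 5.34 and 3.29, and the ratio followed neither genotype nor number. In the node-poor libraries it was 0.661 to 1.05. Glycam1 stood to Cd3e as 0.238 to 0.569 in the rich class and 0.0215 to 0.0877 in the poor class, so the level of the venule gene differed between the classes by more than that of the T cell gene. The node-poor ratios rest on 17 counts of Glycam1 over the 4 libraries. Cd3e and Glycam1 chose the classes, and the ratios describe them.

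Homing genes were mostly apart. Of 10 genes, 8 were apart and higher, with a median log2 fold change of 3.94. Without Ccr7, whose level chose the classes, these were 7 of 9 and 3.70. Ltb, a lymphotoxin that maintains node structure, had 4.37 ± 0.46, and Ccr6, a chemokine receptor of B cells and some T cells, 5.27 ± 0.58. S1pr1, the receptor by which lymphocytes leave the node and which endothelium also carries, overlapped at 0.22 ± 0.15. Klf2, a factor of quiescent T cells and of endothelium, did not overlap but was under 2-fold at 0.67 ± 0.14.

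General leukocyte genes carried the same order on a higher base. All 12 were apart and higher, with a median log2 fold change of 2.08. Ptprc, the leukocyte phosphatase CD45, was at 159.9, 63.99, 68.48 and 442.6 CPM in the controls and at 139.2, 51.43, 52.49 and 351.6 CPM in FMRKO. The node-poor pads thus kept a CD45 level of 51.43 to 68.48 CPM. Among MHC class II genes, Cd74, the invariant chain, was at 708.8, 610.4, 575.5 and 1403 CPM in the controls and at 849.1, 625.7, 615.3 and 1120 CPM in FMRKO, with no overlap and a log2 fold change of 0.75 ± 0.20. H2-Ob and H2-Oa, the peptide-loading modulators of B cells, had 3.85 ± 0.45 and 4.74 ± 0.53. In all, 4 of 10 genes of this list were apart and higher and 9 did not overlap, against 5.27% and 12.2% of all genes tested.

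Dendritic cell, natural killer and macrophage genes separated in part. Ccl22, a chemokine of mature dendritic cells, was at 10.69, 0.662, 1.79 and 31.06 CPM in the controls and at 8.35, 0.991, 1.47 and 18.97 CPM in FMRKO, a log2 fold change of 3.77 ± 0.48, and 5 of 10 dendritic cell genes were apart and higher. Natural killer genes gave 3 of 9 (Prf1, Eomes and Klrd1), while Ncr1 and Klrb1c, which mark these cells more narrowly, overlapped at -0.15 ± 0.36 and -0.42 ± 0.38. Marco, a scavenger receptor of medullary node macrophages, was at 15.57, 4.51, 3.70 and 62.20 CPM in the controls and at 27.39, 2.54, 2.31 and 44.93 CPM in FMRKO (3.56 ± 0.43). Siglec1 of sinus macrophages overlapped, at 0.41 ± 0.21. Of 14 tissue macrophage genes 0 were apart, with a median of -0.09, and Csf1r, the growth factor receptor of macrophages, stood at -0.02 ± 0.14. Scaling by total counts turned that median to 0.07, together with the median of all genes, which moved from -0.04 to 0.12. The 10 genes of lipid-associated macrophages had a median of -0.16 and 0 apart.

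**Figure D2:**
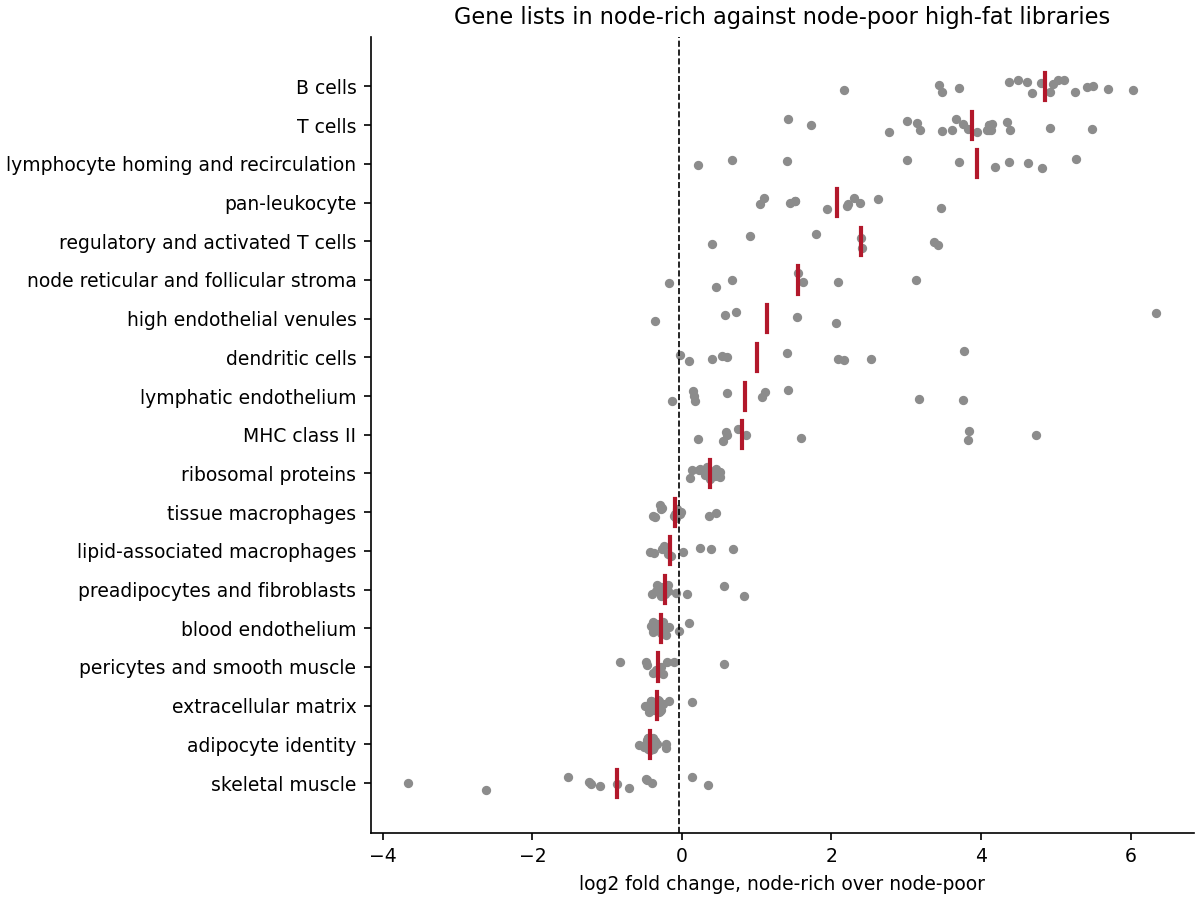
Log2 fold change, node-rich over node-poor high-fat libraries (horizontal), of each tested gene (grey points) in 19 gene lists (vertical), with the median of each list as a red bar and that of all genes tested as a dashed line at -0.04. The medians run from 4.86 for B cells to -0.42 for adipocyte identity and -0.87 for skeletal muscle.

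Stromal genes of the node were a smaller and patchier addition. Of 7 genes tested, Cxcl13 and Tnfsf11 were apart and higher. Cxcl13, the chemokine of follicles, was at 5.93, 5.22, 3.93 and 33.40 CPM in the controls and at 9.84, 5.59, 3.30 and 27.17 CPM in FMRKO, so control 1 lay close above control 2. Tnfsf11, the cytokine RANKL of marginal reticular cells and activated T cells, had 3.13 ± 0.76. Bst1 of reticular cells overlapped at 1.55 ± 0.44, and Il7 and Pdpn, a T cell survival factor and a stromal glycoprotein, at 0.46 ± 0.19 and -0.18 ± 0.17. Ccl21a, a chemokine of the T cell zone with near-identical copies, had 2 counts each in FMRKO 1 and 4 and 0 in the other 6 libraries. Madcam1, an adhesion ligand of marginal reticular cells and some venules, was under the count minimum with 14, 4, 4 and 83 counts in the controls and 11, 2, 0 and 32 in FMRKO.

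Venule and lymphatic genes separated only in part. Among the genes of high endothelial venules, Chst4, a sulfotransferase of these venules, had 7, 0, 0 and 62 counts in the controls and 18, 0, 0 and 21 in FMRKO, present in each node-rich library and at 0 in each node-poor one, but it too was under the count minimum. Apart from Glycam1, whose level chose the classes, 2 of 5 venule genes tested were apart and higher, Fut7 and Ch25h. Fut7, a fucosyltransferase that venules and leukocytes use for selectin ligands, had 2.06 ± 0.57. Ackr1, a chemokine receptor of venules counted in the same list, was the other way. It was at 5.70, 6.50, 8.31 and 6.22 CPM in the controls and 6.23, 8.68, 7.84 and 6.22 CPM in FMRKO, with no overlap (-0.36 ± 0.13). Of 10 lymphatic genes, 2 were apart and higher, against 5.27% of all genes tested. Stab2, a hyaluronan receptor of sinus endothelium, was at 7.41, 3.31, 4.19 and 38.94 CPM in the controls and at 14.31, 1.31, 1.95 and 30.75 CPM in FMRKO (3.17 ± 0.55), and Cldn11, a claudin, had 3.76 ± 0.85. Lyve1 and Flt4, which mark lymphatic vessels generally, overlapped at 0.16 ± 0.19 and 0.18 ± 0.16. Prox1, the lymphatic master regulator, was at 11.13 CPM in node-poor control 3 and 11.11 CPM in node-rich control 4, and control 3 was also the library highest in skeletal muscle genes, a tissue in which Prox1 is expressed. Whether the muscle in that library bears on Prox1 was not tested.

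Blood endothelium lay slightly lower in the node-rich libraries. Of 16 genes, 15 had a log2 fold change below 0, the median was -0.28, and 0 were apart. Cdh5, the cadherin of endothelial junctions, was at 284.7, 346.0, 391.9 and 284.3 CPM in the controls and at 317.3, 315.6, 385.4 and 212.3 CPM in FMRKO, so FMRKO 1 and FMRKO 2 were level. Tek, the angiopoietin receptor, was the 1 member without overlap (-0.34 ± 0.10), where 7.1% of all genes tested did not overlap and were lower. Plvap, a protein of fenestrated and venous endothelium, was the 1 member above 0, at 0.10 ± 0.11. Under scaling by total counts the list's median was -0.13.

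Adipocyte genes were lower in the node-rich libraries by a small and even amount. All 22 had a log2 fold change below 0, from -0.58 to -0.21, with a median of -0.42. None was apart, since none reached 2-fold, and 9 of 22 did not overlap, where 7.1% of all genes tested did not overlap and were lower. Adipoq, the adipocyte hormone adiponectin, was at 1191, 1469, 1427 and 770.9 CPM in the controls and at 1201, 1410, 1380 and 968.9 CPM in FMRKO. The libraries numbered 4 were far below the rest and those numbered 1 lay between them and the node-poor ones. Fabp4, the fatty acid carrier, was at 9531, 11370, 10320 and 6614 CPM in the controls and at 7814, 9398, 11120 and 6834 CPM in FMRKO, with overlap across genotypes only. Lpl, the lipase that frees fatty acids from lipoproteins, was at 6157, 7659, 6846 and 4334 CPM in the controls and at 5414, 6994, 7097 and 5015 CPM in FMRKO, without overlap (-0.45 ± 0.17). Pparg, the master factor of adipocytes, had the lowest log2 fold change of the list, -0.58 ± 0.15. The list's median was -0.28 with scaling by total counts, -0.69 without the libraries numbered 1 and -0.19 without those numbered 4, where 19 of 22 members stayed below 0. In bulk tissue, fewer cells of a type and less RNA per cell cannot be told apart.

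Gene groups of the whole pad were lower by similar amounts. De novo lipogenesis genes had a median of -0.36, with 17 of 17 below 0, oxidative phosphorylation genes -0.27 with 22 of 22, and extracellular matrix genes -0.34 with 19 of 20. Of all 17484 genes tested, 9440 were below 0. All 9 thermogenic genes (median -0.41) and all 7 erythrocyte genes (-0.41) were below 0 too, while 12 of 13 mitotic genes were above it (0.38). Preadipocyte and fibroblast genes had -0.23 with 10 of 13, but 0.04 in FMRKO alone. In summed CPM, the 22 adipocyte genes were at 43270 and 28690 in the node-rich controls against 50390 and 45910 in the node-poor ones, and at 40990 and 31170 against 47360 and 49290 in FMRKO. The mean difference was -12210 CPM for these genes and 11390 CPM for the 921 genes apart and higher. CPM with TMM factors do not add up to a fixed total. Over all genes tested the sum was on average 948700 CPM in the node-rich and 1057000 CPM in the node-poor libraries. These differences therefore do not measure an exchange of transcripts. Ribosomal protein genes were higher: 19 of 19 had a log2 fold change above 0, the median was 0.37, and 13 did not overlap. Without the libraries numbered 4, 18 of 19 were above 0 with a median of 0.17. Among the 90 ribosomal protein genes tested in all, the median was 0.31. Of these 90, 31 did not overlap and were higher and 1 did not overlap and was lower. The share of all genes that did not overlap and were higher was 12.2%. The gene with the largest difference in mean CPM above 0 was Gm26917, a non-coding annotation that overlaps ribosomal RNA sequence, at 29390, 22590, 19350 and 30690 CPM in the controls and 26660, 25830, 22880 and 29030 CPM in FMRKO. The libraries had been depleted of ribosomal RNA, and the part of that step in these differences was not tested. The largest difference below 0 was that of Scd1, a fatty acid desaturase, at 113500, 102100, 94430 and 50420 CPM in the controls and 101200, 118400, 108400 and 70480 CPM in FMRKO, with control 1 above both node-poor controls.

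**Figure D3:**
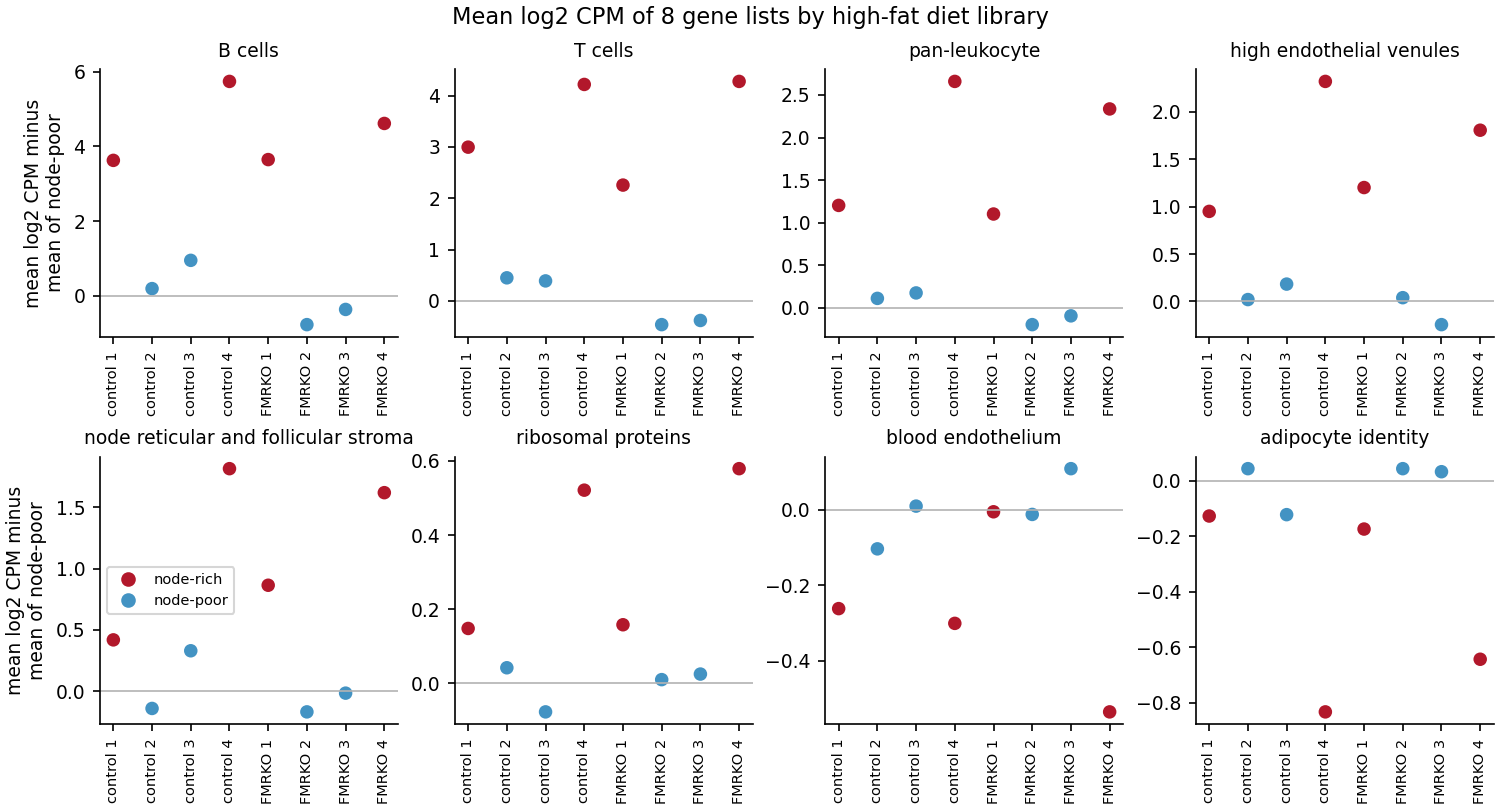
Mean log2 CPM of 8 gene lists in each high-fat library, minus the mean of the 4 node-poor libraries (vertical), by library (horizontal), 1 point per library, coloured by class. Vertical scales differ: lymphocyte lists span several log2 units, while adipocyte identity lies between 9.30 and 10.18 mean log2 CPM before subtraction and is lowest in control 4 and FMRKO 4.

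The highest log2 fold changes at a mean of at least 1 CPM included genes outside the lists. Dsc3, a desmosomal cadherin best known from epithelia, was at 2.89 and 9.71 CPM in control 1 and 4, at 2.62 and 8.06 CPM in FMRKO 1 and 4, and at 0 counts in all node-poor libraries. Against a floor of 3 counts per library it was at least 50.6-fold higher. Grem1, a secreted antagonist of bone morphogenetic proteins, was at 2.11 and 6.58 CPM in the rich controls, at 2.52 and 3.85 CPM in the rich FMRKO libraries and at 0 in the poor ones, at least 32.7-fold higher. Dscaml1, a cell adhesion molecule, had 344 counts over the rich and 1 over the poor libraries, a ratio of 345 (95% exact interval 61.5 to 13700, counting error only). Tspan10, a tetraspanin, had 320 and 2 counts, a ratio of 161 (44.1 to 1330). Dapl1, which was first described in epithelium, had a log2 fold change of 6.54 ± 0.92. The other 5 of the 10 highest were immunoglobulin genes, Ighg1 among them with 6.44 ± 0.42. At the low end, only 5 apart genes reached that mean, Pdzk1ip1, BC024139, Slc8a3, Hhip and Gm25939, with log2 fold changes from -1.30 to -1.01 and node-poor means of 1.36 to 2.01 CPM. By gene class, 46 of 65 immunoglobulin segments (70.8%), 8 of 11 T cell receptor segments (72.7%), 718 of 14431 protein-coding genes (4.98%) and 116 of 1734 other non-coding genes (6.69%) were apart and higher. Genes near 0 in the node-poor libraries were tested only because the node-rich ones met the count minimum. The shares of the segments are in part set by that filter and cannot be compared with the others.

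The 16 chow and corticosterone libraries, which had no part in the choice, allowed a test. The log2 level of each gene was regressed on the node score within the 4 groups by edgeR's quasi-likelihood test, leaving out the 3 score genes, with Benjamini-Hochberg adjustment over 19027 genes. CPM in these libraries were scaled apart from the high-fat ones. Scores were 5.60 and 5.32 in chow FMRKO 1 and 3, and 1.83 and 2.23 in corticosterone FMRKO 2 and 3. Positive slopes were called for 710 genes (3.73%) and negative ones for 105 (0.552%). Of the 921 genes apart and higher on the high-fat diet, 836 were tested here, and 439 of them (52.5%) had a called positive slope and 0 a negative one, while 4.07% of the 17313 genes in both fits were called positive. These 439 made up 61.8% of the 710. Of the 1242 genes that did not overlap and were lower, 26 of 1238 tested (2.10%) had a called negative slope, against 0.589% of all.

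**Figure D4:**
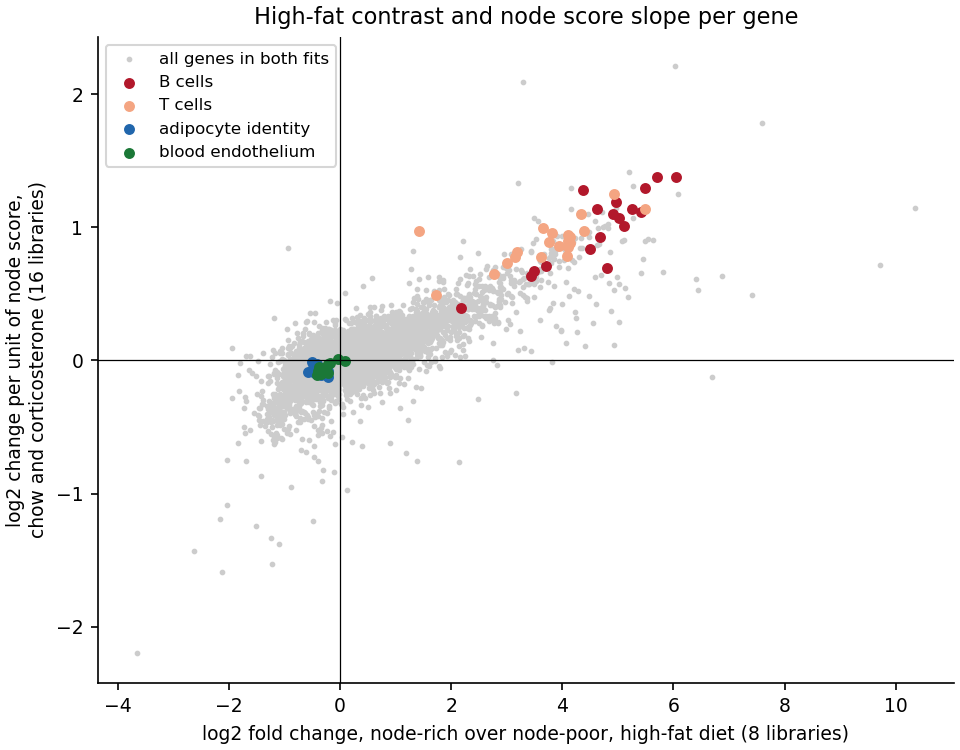
Each point is a gene in both fits, with its log2 fold change, node-rich over node-poor, in the 8 high-fat libraries (horizontal) and its log2 change per unit of node score in the 16 other libraries (vertical). T and B cell genes lie at the upper right with slopes of 0.39 to 1.38, and the log2 fold changes of adipocyte and blood endothelial genes lie between -0.58 and 0.10.

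Lymphocyte lists were called almost whole in this test. Cd3e and Ccr7 of the score are themselves lymphocyte genes, so lymphocytes of any source would raise the score and these lists together. The source was not tested. All 21 T cell genes tested rose with the score, with a median slope of 0.89 log2 units per unit of score, and so did all 18 B cell genes, with 1.09. Trac, which overlapped on the high-fat diet, had a slope of 0.97 ± 0.08 (adjusted p = 1.11e-05). Spib, a transcription factor of B cells, was at 68.44 and 27.42 CPM in chow FMRKO 1 and 3 and lower, 3.52 and 6.16 CPM, in corticosterone FMRKO 2 and 3. It was at 0.0385 to 0.995 CPM in the other 12 libraries, with a slope of 1.38 ± 0.10 (adjusted p = 4.69e-06). Pcdh15, a protocadherin known from hair cells, had the highest slope of all named by the rule, 2.21 ± 0.23 (adjusted p = 6.06e-05), with 13.65 and 4.34 CPM in chow FMRKO 1 and 3, 2.49 and 1.86 CPM in corticosterone FMRKO 2 and 3, and at most 0.187 CPM elsewhere. Dsc3 also rose with the score (1.15 ± 0.29, adjusted p = 0.0407), and Grem1 was not called (0.72 ± 0.31, adjusted p = 0.221).

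Node stroma gave no call there, and vessel genes gave some. Positive slopes were called for 3 of 10 lymphatic genes (Stab2, Cldn11 and Mmrn1) and 1 of 6 venule genes (Chst4), against 3.73% of all genes tested. The lymphatic calls were 0 without chow FMRKO 1, 2 or 5. Of 7 stromal genes 0 were called, with a median slope of 0.14, Cxcl13 having 0.19 ± 0.16 (adjusted p = 0.552). Chst4, tested here, rose with the score (1.71 ± 0.19, adjusted p = 0.000108), and so did the sinus genes Stab2 (0.36 ± 0.08, adjusted p = 0.0239) and Marco (1.05 ± 0.18, adjusted p = 0.00371). Of immunoglobulin constant regions only Ighg3 was called, and it was not without chow FMRKO 1, 2 or 5, while Igkc had 0.37 ± 0.20 (adjusted p = 0.328). Of 19 ribosomal protein genes 7 rose, but 0 were called without any 1 of the 4 chow FMRKO libraries, with skeletal muscle and epithelium scores in the model, or with the replicate number as a block.

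Adipocyte genes gave 0 calls of 22, with a median slope of -0.08, and DESeq2 also called 0. Adipoq had -0.08 ± 0.03 (adjusted p = 0.182) and Pparg -0.09 ± 0.04 (adjusted p = 0.219). Of 16 blood endothelial genes, Cdh5 (-0.08 ± 0.02, adjusted p = 0.0454) and Emcn (-0.09 ± 0.02, adjusted p = 0.0359) fell with the score. Neither was called without any 1 of the 4 chow FMRKO libraries, without corticosterone FMRKO 1 or 2, or with total counts. None of the 16 was called without a filter, with skeletal muscle and epithelium scores, in chow or corticosterone alone, or with the replicate block. DESeq2 called 6 of the 16 lower, and the linear score 5. Srebf1, the regulator of lipid synthesis, was among the lowest called slopes at -0.16 ± 0.04 (adjusted p = 0.0214). The slope of Srebf1 was not called without chow FMRKO 1, 2 or 5 (adjusted p of 0.0538 to 0.191).

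The calls in these 16 libraries rested on chow FMRKO 1 and 3. Without both, 14 genes were called positive, all 14 of them apart and higher on the high-fat diet, and 0 negative. Of 19857 genes tested, 768 had an unadjusted p under 0.05, no more than that threshold gives with no effect. The median slope of the T cell genes was then 1.06 and that of the B cell genes 0.96, with 0 of 21 and 4 of 18 called. The chow libraries alone gave 420 positive and 24 negative calls. The corticosterone libraries alone gave 0 and 0 with edgeR, with 517 of 16969 genes at an unadjusted p under 0.05. Leaving out chow FMRKO 1, 2 or 5 alone gave 251, 206 and 297 positive calls. Negative calls numbered 0 to 33 without any 1 chow FMRKO library, 62 and 68 without corticosterone control 3 or FMRKO 1, and 158 to 197 without chow control 1, chow control 2 or corticosterone FMRKO 3.

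The FMRKO effect on the high-fat diet was then fitted with and without node class. Only FMRKO mice carried Cre, so loss of Nr3c2 cannot be told apart from carrying the Cre transgene in these fits. Nr3c2 itself was at 17.52, 19.54, 23.30 and 18.19 CPM in the controls and at 13.48, 14.43, 14.17 and 12.14 CPM in FMRKO, lower in all 4 FMRKO libraries whatever their class (log2 fold change -0.53 ± 0.09, adjusted p = 0.667 by edgeR). DESeq2 with node class called it (-0.53 ± 0.12, adjusted p = 0.00517). The biological coefficient of variation was 23.8% with node class in the model and 33.6% without it. The standard error was smaller for 79.7% of genes. Of 17484 genes, 861 (4.92%) against 589 (3.37%) had an unadjusted p under 0.05. Neither share exceeded what that threshold gives with no effect. Either way 1 gene (0.00572%) passed the adjusted threshold. It was Zfp949, a zinc finger gene, at 7.92, 6.83, 7.21 and 7.52 CPM in the controls and 17.39, 15.98, 16.08 and 17.67 CPM in FMRKO (1.19 ± 0.09, adjusted p = 0.00944), with no overlap between genotypes in either class. Without the node class its adjusted p was 0.0208. The FMRKO effect on Zfp949 kept its size with any 1 library left out (1.17 to 1.20), but its adjusted p stayed under the threshold only without control 4 (0.0273) and was 0.053 to 0.136 without each other library. Eif4a2, a translation initiation helicase, had 0.64 ± 0.07 (adjusted p = 0.0848). Blocking on the replicate number, which contains the node class, called 39 genes, among them Zfp949, Eif4a2 (adjusted p = 0.0192) and Gsta4, a glutathione transferase (1.47 ± 0.15, adjusted p = 0.0192, against 1.38 ± 0.35 and 0.801 with node class). DESeq2 with node class called 47.

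Whether the node-rich minus node-poor difference itself depended on genotype was tested as an interaction. Of 17484 genes, 0 (0%) passed by edgeR, 210 (1.2%) had an unadjusted p under 0.05, and DESeq2 called 3. This does not show that the differences were alike. Ighg3 gave an example of a wide difference without a call (8.13 ± 1.80, adjusted p = 1): it was at 1.72, 5.30, 0.714 and 1.22 CPM in the controls and at 4.44, 0, 0.159 and 18.69 CPM in FMRKO.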

How the data were processed

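Total RNA from flash-frozen pads was depleted of ribosomal RNA, per the labels' protocols. The authors deposited counts per gene for 41388 genes, made with STAR 2.5.1a and featureCounts 1.4.6p-5 (Subread) on GRCm38, per the submitters' processing notes. No label or header names the annotation release or the strand setting, and reads of overlapping antisense genes may therefore be mixed. The CPM and RPKM columns that the authors deposited beside the counts were recomputed as a check and not used. Symbols from GENCODE M21 matched 97.26% of genes. Total counts ran from 24178074 to 31598597 in the 8 high-fat libraries and from 17925109 to 40427675 in all 24. For genes with many counts the spread between libraries sets the precision. For genes with few counts, such as Glycam1 in the node-poor libraries, counting error adds to it.

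Counts were fitted with edgeR 4.0.16 in R 4.3.3 (filterByExpr with a minimum count of 10 by node class or group, TMM scaling, quasi-likelihood tests, adjusted p threshold 0.05), with DESeq2 1.42.0 as an alternative. Log2 CPM in scores used a prior count of 2. Node class and genotype entered the high-fat fit. Group and node score entered the fit of the 16 others. Promoter sequences are from RefSeq (GRCm38.p6), matched by symbol. Scripts were tested on simulated data. Same-numbered control and FMRKO libraries deviated together on the high-fat diet (correlations 0.30, 0.626, 0.622 and 0.761). These values include the shared node class, since control and FMRKO libraries of the same class but other numbers had 0.137 to 0.291. The numbers were taken as pairs only in the alternatives with a replicate block, and the main fits held node class instead.

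Classes, gene lists and tests were chosen with earlier results of these data known. Genes were named by a rule: the markers and Nr3c2, the 2 to 4 members of each list with the highest mean CPM, any member of the stromal, endothelial and adipocyte lists, the 10 highest and lowest fold changes of apart genes and the 10 highest and lowest called slopes at a mean of at least 1 CPM, the 10 largest differences of mean CPM each way, the genes called between genotypes, and Zfp949, Eif4a2 and Gsta4. Trac, Cd8a, Lck, Cr2, Iglc2, Ighg3, Mzb1, Ncr1, Klrb1c, Klrd1, H2-Oa and H2-Ob fall outside it and were chosen after their values were seen. Some results were left out and are not reported here.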

Additional observations from a re-analysis of the deposited data

Results flagged for a closer look

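In groups of 4 libraries, a library far from the other 3 was searched for. The values were the mean log2 CPM of each gene list and the node score on the high-fat diet, and the node score in the other groups. Of 82 groups of values 4 were picked out, where chance gives about 1 in 20 among like libraries. Each high-fat group held node-rich and node-poor libraries by choice, so that rate need not hold for lists that follow the node. Natural killer and cytotoxic genes were at 1.66 in node-rich control 4 against 0.77 to 0.85 in the other controls, node-rich control 1 included. Neutrophil and mast cell genes were at 3.13 in node-rich FMRKO 4 against 2.40 to 2.52 in the other FMRKO libraries. Lipid-associated macrophage genes were at 4.11 in node-rich control 1 against 4.73 to 4.85 in the other controls. Skeletal muscle genes were at 4.28 in node-poor control 3 against 0.96 to 1.33 in the other controls, and the lower median of this list in the node-rich class (-0.87) moves with that library.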

How the results depend on the processing

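All alternatives were planned except those said to be chosen after seeing the data, which include each one without the libraries numbered 1 or 4. Genes apart and higher numbered 921, and 1480 in the controls alone, 495 at 4-fold and 2115 without the libraries numbered 1, with 799 to 1295 when 1 library was left out. Genes apart and lower numbered 15, and 5 with total counts, 181 and 144 in the controls or FMRKO alone, 87 without a filter, 0 at 4-fold, 186 and 121 without the libraries numbered 1 or 4, and 26 to 46 with 1 library left out. The adipocyte median of -0.42 was -0.69 without the libraries numbered 1 and -0.56 to -0.31 with 1 library left out. The preadipocyte median of -0.23 was 0.038 in FMRKO alone. Scaling by total counts moved the median of all genes from -0.04 to 0.12. The cause of these moves was not tested, beyond the smaller number of libraries to compare.

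Positive slopes numbered 710, and 1179 with DESeq2, 1122 with total counts, 1368 with a linear score, 420 in chow alone, 0 in corticosterone alone and 14 without chow FMRKO 1 and 3, with 206 to 866 when 1 library was left out. Negative slopes numbered 105, and 450 with DESeq2, 53 without a filter, 41 with total counts, 439 with a linear score, 25 with skeletal muscle and epithelium scores, 24 in chow alone, 0 in corticosterone alone, 0 without chow FMRKO 1 and 3, and, chosen after seeing the data, 300 with a score of Cd3e and Ccr7 and 181 without corticosterone FMRKO 2 and 3, with 0 to 197 when 1 library was left out. The shared 439 were 14 without chow FMRKO 1 and 3, 0 in corticosterone alone, and 190 to 492 with 1 library left out. Same-numbered chow and corticosterone libraries did not deviate together (correlations -0.30 to 0.121), so the numbers are only labels there. With them as a replicate block, positive slopes numbered 86, negative ones 12 and shared ones 82.

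The 1 FMRKO call became 3 with the node score, 47 with DESeq2, 6 without a filter, 39 with the replicate block and 0 to 2 with 1 library left out. The interaction gave 3 calls with DESeq2 and 0 under every other alternative run, the replicate block included. No block could be added to node-rich against node-poor, because each number lies in 1 class. Of the results for single genes and lists, 877 were labelled the same, 148 lost a call, 7 gained one, 47 moved and 1 reversed. For a gene, the same means direction and side of the threshold. For a list, it means a median within the standard deviation between libraries of a class. A list was labelled reversed only if its main median exceeded that deviation. Small medians, such as that of tissue macrophages, could thus change sign and be labelled the same.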
